A study of Caenorhabditis elegans with 6 samples.

Results

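Proteasome subunit genes were followed in germline RNA of *C. elegans* hermaphrodites that differed in which parent's chromosomes their germ cells had inherited. The genes were all protein-coding genes whose WormBase symbol starts with pas-, pbs-, rpn- or rpt-, matched by sequence name to the count tables. This rule gave 33 genes of the 45461 gene names in the tables, 14 for the core particle and 19 for the regulatory particle. The core genes were 7 *pas* genes of the alpha rings and 7 *pbs* genes of the beta rings. The regulatory genes were 6 *rpt* genes of the ATPase ring and 13 *rpn* genes of the non-ATPase subunits. All 33 were found and all 33 passed the filter on low counts.

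The proteasome is the protease that degrades ubiquitin-tagged proteins in the nucleus and cytoplasm. Its barrel-shaped core particle has outer alpha rings, which gate the entrance, and inner beta rings, which hold the proteolytic sites. The regulatory particle binds ubiquitin chains, removes them, and unfolds and threads substrates into the core by ATP hydrolysis. In the worm germline, protein degradation by the proteasome accompanies meiosis, sex determination and the transition from oocyte to embryo.

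RNA-seq was performed on distal gonad arms of hermaphrodites, cut at the bend where late-pachytene germ cells lie, from day 1 adults kept at 24 °C. The 3 groups had 2 libraries each, and each library pooled many arms. Control germlines came from strain HBR1280, whose transgene oxTi75 carries GFP::H2B under the *eft-3* promoter with the *tbb-2* 3′UTR, and unc-18(+). "Red-head" F1 germlines came from HBR1281 hermaphrodites mated with HBR1280 males. HBR1281 carries oxTi411 on chromosome III, with *eft-3*-driven TdTomato::H2B, the *unc-54* 3′UTR and Cbr-unc-119(+), and also ddIs32, a synthetic yfp::gpr-1 with artificial introns. Excess GPR-1 in these mothers separates the parental pronuclei, so that the germline of a "red-head" worm descends from sperm chromosomes only, while the tissues that descend from the other early blastomere carry oocyte chromosomes. F2 germlines came from offspring of "red-head" worms. The paper describes the "red-head" F1 and F2 samples as genetically identical to HBR1280, the control strain. The groups thus compare germlines with chromosomes of both parents, germlines with chromosomes of sperm only, and germlines of the next generation.

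Counts on genes ranged from 2721055 to 11310273 per library, and the proteasome genes took between 0.916% and 1.02% of them. A member other than *rpn-6.2* had between 270 and 9491 counts in a library, and *rpn-6.2* had between 29 and 334. All 16 germline markers were detected, with a summed level of 18068 to 21016 CPM (counts scaled to a common library total by TMM). Within that sum, single markers differed in both directions. *gld-1* was at 1400 and 1335 CPM in control, 1002 and 1453 in "red-head" F1, and 1567 and 1658 in F2. *cpg-1* was at 2528 and 2837 CPM in control, 3351 and 4253 in "red-head" F1, and 2423 and 2798 in F2. Sperm markers (20 genes) summed to 63.7 and 27.7 CPM in control, 1.5 and 8.17 in "red-head" F1, and 33.5 and 6.32 in F2 offspring germlines. Both "red-head" libraries and F2 replicate 2 were thus below both controls in sperm markers. The libraries also differed in somatic RNA. Over the 15 intestine markers, the summed CPM was 518 and 356 for control, 3259 and 6243 for "red-head" F1, and 1358 and 208 for F2 offspring germlines. For 13 of the 15, neither "red-head" value overlapped the controls, and both were higher. *elt-2*, which defines intestinal cells, was at 0 in both controls and in F2 replicate 2 and at 1.11 CPM at most. Muscle markers (12 genes) ranged from 130 to 323 CPM and gonadal sheath markers (8 genes) from 160 to 228 CPM, without separating the groups. The part of sperm and somatic RNA in the values below was not tested. In these bulk samples, fewer cells of a type and less RNA per cell cannot be told apart.

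Proteasome genes were among the abundant RNAs of the control germline. Levels are given as RPKM, CPM divided by the exonic length in kilobases, so that genes of different length can be compared. The median member lay at the 95.1 percentile of the 7594 tested protein-coding genes in control, and 32 of the 33 lay above the median of those genes, 35.5 RPKM. Those 32 members spanned 133 to 309 RPKM as control means, a narrow range. The highest were *pas-3* (Y110A7A.14), an alpha ring subunit, at 318.3 and 300.7 RPKM in the control libraries, *pbs-1* (K08D12.1) at 311.2 and 286.8 RPKM, and *pas-2* (D1054.2) at 317.4 and 240.8 RPKM. The lowest of the 32 were *rpn-10* (B0205.3) at 138.0 and 133.0 RPKM and *pas-1* (C15H11.7) at 150.8 and 115.3 RPKM. The order within the list was mostly not resolved, since for 29 of its 32 pairs of neighbours the control libraries overlapped. The exceptions were the pairs *rpn-13* and *rpt-6*, *rpt-6* and *rpn-10*, and *pas-1* and *rpn-6.2*.

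**Figure D1:**
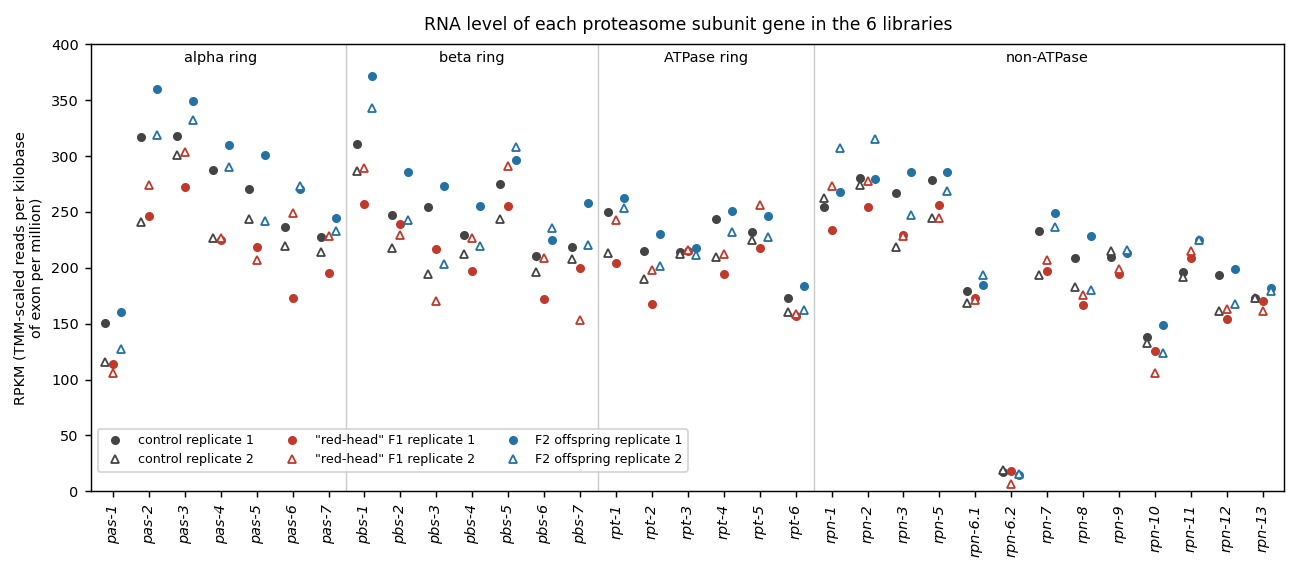
RNA level of the 33 proteasome subunit genes, grouped by family along the horizontal axis, with RPKM on the vertical axis and one point per library (filled circle, replicate 1; open triangle, replicate 2). Only *rpn-6.2*, at 6.92 to 18.9 RPKM, lies apart from the other genes, and most F2 offspring points (blue) lie above the "red-head" F1 points (red).

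The exception was *rpn-6.2* (F59B2.5), a paralog of the lid subunit gene *rpn-6.1* (F57B9.10). *rpn-6.2* was at 16.8 and 18.9 RPKM in control, 17.8 and 6.92 in "red-head" F1, and 14.1 and 15.3 in F2 offspring germlines. The single low value came from 29 counts in the smallest library. *rpn-6.1*, which worms without a germline need for their long life, was at 179.4 and 168.8, then 172.7 and 171.1, then 184.4 and 193.7 RPKM. Its level exceeded that of *rpn-6.2* by 8.94 to 24.7 times across the 6 libraries. Reads that the paralogs share could have been counted for either, so this ratio is uncertain.

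The 3 beta subunits with proteolytic sites did not stand apart from the other core genes. Beside the caspase-like *pbs-1* above, the chymotrypsin-like *pbs-5* (K05C4.1) had 275.1 and 243.7 RPKM in control. The trypsin-like *pbs-2* (C47B2.4) had 247.5 and 217.7 RPKM. Per library, the median core gene stood at 218 to 279 RPKM and the median regulatory gene at 194 to 228 RPKM. The ratio of these medians was 1.17 and 1.13 in control, 1.12 and 1.10 in "red-head" F1, and 1.22 and 1.12 in F2 offspring germlines. Both "red-head" values were below the other 4, the nearest F2 value by less than the spread within any group. Within the core, the ratio of the alpha to the beta ring medians was 1.01 in both "red-head" libraries, 1.09 and 1.07 in control and 1.10 and 1.16 in F2, so that "red-head" F1 was again lowest. These ratios were not tested. The rank order of the 33 genes was shared between libraries, with Spearman's rho across genes of 0.77 to 0.97 for the 15 pairs of libraries. The libraries share gene lengths and an annotation, and genes are not independent replicates.

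No proteasome gene was called different between "red-head" F1 and control germlines, the comparison of germlines with sperm chromosomes only against those with both parents' chromosomes. At an adjusted p of 0.05 in edgeR's quasi-likelihood test, 0 of the 33 were called in either direction. The background was also 0% of the 8117 tested genes. At an unadjusted p under 0.05 the counts were 0 of 33 members and 7.65% of all tested genes, and DESeq2 called 0 members, with 0 at an unadjusted p under 0.05. The lowest adjusted p of a member was 0.695, for *pas-5* (F25H2.9), an alpha subunit. It had 270.9 and 243.8 RPKM in control against 218.8 and 207.2 in "red-head" F1. The groups did not overlap, and the fitted log2 fold change was -0.27 (SE 0.13).

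Small differences leaned to lower levels in "red-head" F1. The median log2 fold change of the 33 genes was -0.10, a ratio of 0.931, against -0.01 for all tested genes. The fitted change was below 0 for 28 of the 33 (background 51.3%) and above 0 for 5 (background 48.7%), and it reached 2-fold for 0 (background 6.76%). Both "red-head" libraries were below both controls for 9 members (background 19.6%) and above them for 2 members (background 18.4%). The 9 held 4 core and 5 regulatory genes. *pbs-7* (F39H11.5), a beta ring subunit without a proteolytic site, was at 218.3 and 208.2 RPKM in control and 199.9 and 153.6 in "red-head" F1. *rpn-10*, a ubiquitin receptor that in the worm also acts in germline sex determination, was at 125.1 and 106.0 RPKM in "red-head" F1, below both controls. The 2 members above both controls were *rpn-11* (K07D4.3), the deubiquitinase of the lid, with 195.9 and 191.4 against 209.2 and 214.8 RPKM, and *rpt-3*, an ATPase, whose 6 values all lay between 211.7 and 217.6 RPKM.

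The lean was no larger than the difference between the controls themselves. Control replicate 1 was above control replicate 2 for 29 of 33 members, by a median of 0.11 on the log2 scale. The median of "red-head" F1 against control was -0.03 without control replicate 1 and -0.16 without control replicate 2. The precision limited what could be seen. The median SE of a member's log2 fold change was 0.12. The 95% interval excluded a change of 2-fold either way for 32 of 33 members, all but *rpn-6.2*, against 59.3% of all tested genes.

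F2 offspring germlines were compared with control to ask whether the next generation differed. Again 0 of 33 members were called higher or lower, against a background of 0.123% higher and 0% lower. The adjusted p was 0.999 for each of the 33 in edgeR's test. At an unadjusted p under 0.05 there were 2 members, *pbs-1* and *rpn-11*, and 1.29% of all tested genes, while DESeq2 called 0 and gave 0 at an unadjusted p under 0.05. *pbs-1* was at 371.8 and 342.7 RPKM in F2 offspring germlines, above its controls, with a fitted log2 fold change of 0.26 (SE 0.11). *rpn-11* was at 224.6 and 225.1 RPKM, above its controls and its "red-head" F1 values, with a change of 0.22 (SE 0.09).

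Here the differences leaned upward. The median log2 fold change was 0.11, a ratio of 1.08, against 0.00 for all tested genes, and it was above 0 for 32 of 33 members (background 50.6%) and below 0 for 1 (background 49.4%). None reached 2-fold, where 4.63% of all tested genes did. Both F2 libraries were above both controls for 15 members (background 16.4%) and below them for 1, *rpn-6.2* (background 16.6%). *pas-2* had the largest fitted change, 0.28 (SE 0.15), from 317.4 and 240.8 RPKM in control to 359.7 and 319.2 in F2 offspring germlines, and even here the lower F2 value stood next to the higher control. *pbs-5*, the chymotrypsin-like subunit, was at 296.2 and 308.1 RPKM in F2, above both controls. *pbs-2* overlapped its controls, with 285.5 and 242.7 RPKM in F2. The median change was 0.04 without control replicate 2 and 0.18 without control replicate 1. The 95% interval lay within 2-fold either way for 32 of 33 members, against 61% of all tested genes.

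The widest separation lay between "red-head" F1 and F2 offspring germlines, and it too gave no call. In edgeR's test 0 of 33 members passed, with backgrounds of 0% higher and 0.0123% lower in "red-head" F1. At an unadjusted p under 0.05 there were 8 members, all of them core genes (*pas-1* to *pas-5*, *pbs-1*, *pbs-6* and *pbs-7*), against 10.2% of all tested genes. DESeq2 called 0 and gave 6 at an unadjusted p under 0.05. Here and in the other 2 comparisons, the DESeq2 counts at an unadjusted p stand without DESeq2's share over all genes. The lowest adjusted p was 0.338 in edgeR's test and 0.234 in DESeq2's. The median log2 fold change of the 33 genes was -0.22, a ratio of 0.861, against -0.01 for all tested genes, and 32 of 33 were below 0 (background 50.9%) and 1 above 0 (background 49.1%). A fitted change of 2-fold was reached by 0 members and by 7.15% of all tested genes.

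Both "red-head" F1 libraries were below both F2 libraries for 26 of the 33 members, where the background was 20.4%, and above them for 0 (background 17.5%). The lowest adjusted p was that of *pbs-1*, with 256.9 and 289.7 RPKM in "red-head" F1 against 371.8 and 342.7 in F2 and a log2 fold change of -0.39 (95% interval -0.65 to -0.14). The largest change was that of *pbs-7*, with 199.9 and 153.6 against 258.2 and 220.0 RPKM, -0.43 (95% interval -0.77 to -0.09). *pas-4* (C36B1.4), an alpha subunit, was at 225.3 and 226.3 RPKM in "red-head" F1 and 310.0 and 290.1 in F2, and its groups were well apart at -0.41 (SE 0.13), although the control libraries, 287.3 and 226.8 RPKM, spanned most of that distance. *pas-1* was at 113.8 and 106.0 against 160.3 and 127.0 RPKM, the same pattern at a lower level.

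Of the regulatory genes, 18 of 19 were also below 0, with a median of -0.18 against -0.32 for the core genes, and *rpt-3* was at 0.00. The 2 sets overlapped, since *rpn-7* (-0.27) and *rpn-8* (-0.26) lay farther from 0 than the core gene *pbs-5* (-0.15). *rpn-2* (C23G10.4), a scaffold of the base, was at 254.1 and 277.9 RPKM in "red-head" F1 and 279.6 and 315.1 in F2, with 280.7 and 274.2 in control. *rpn-3* (C30C11.2), a lid subunit, was at 229.1 and 228.6 against 286.1 and 247.1 RPKM, with 266.6 and 218.6 in control. *rpn-9* (T06D8.8), also of the lid, was at 194.6 and 198.5 against 213.6 and 216.1 RPKM, below also its controls of 210.0 and 214.6. These groups did not overlap between "red-head" F1 and F2, although for *rpn-2* the nearest values almost met. *rpt-1* (C52E4.4), an ATPase, was at 204.1 and 242.8 against 262.2 and 253.1 RPKM, with a log2 fold change of -0.21 (SE 0.13). The ubiquitin receptor *rpn-13* (C56G2.7) varied little, with 173.1 and 173.3 RPKM in control, 170.1 and 161.6 in "red-head" F1 and 182.1 and 179.5 in F2, and yet the 3 groups did not overlap. *rpn-10* overlapped at one edge, with 125.1 and 106.0 against 149.1 and 123.7 RPKM. Over the 33 genes the 95% interval lay within 2-fold either way for 32, against 58% of all tested genes.

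**Figure D2:**
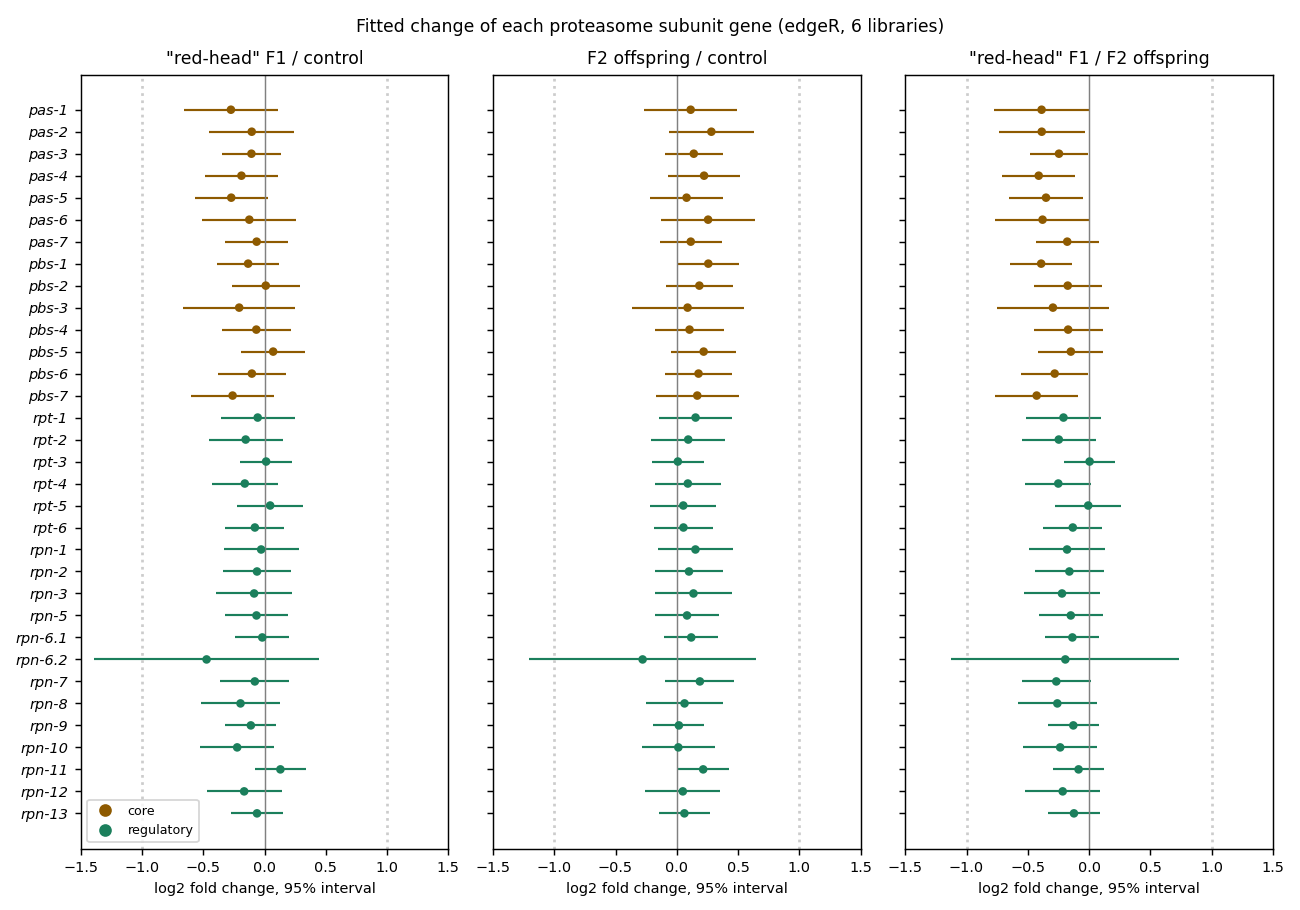
Fitted log2 fold change (point) and its 95% interval (line) of each proteasome gene in the 3 comparisons, from edgeR's fit of 6 libraries; core genes are brown, regulatory genes green, and dotted lines mark 2-fold. In the right panel 32 of 33 points lie below 0, and in each panel only the interval of *rpn-6.2* reaches 2-fold.

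The 3 comparisons share libraries and are not independent. Seen over the groups, the means had the order "red-head" F1, control, F2 offspring for 27 of the 33 members, against 22.5% of all tested genes. Both "red-head" libraries below both controls together with both F2 libraries above them occurred for 3 members, *pas-4*, *pbs-7* and *rpn-13*, against 2.75% of all tested genes. F2 replicate 1 was the highest library for 23 members and F2 replicate 2 for 8. The lowest was "red-head" F1 replicate 1 for 17, "red-head" F1 replicate 2 for 8 and control replicate 2 for 7. The counts of highest and lowest libraries stand without a share over all tested genes. Relative to the mean of the controls, the median log2 level of the members was 0.06 and -0.06 in the controls, -0.13 and -0.04 in "red-head" F1, and 0.18 and 0.05 in F2. Replicate 1 thus lay farther from the controls in both groups.

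These counts of non-overlapping genes changed little with RLE, another scaling factor, and those that involve F2 fell without a factor. With RLE, "red-head" F1 was below F2 for 24 members (background 19%) and below control for 7 (background 18.1%). F2 was above control for 15 (background 16.1%). With library size alone and no TMM factor, "red-head" F1 was below F2 for 8 members (background 12.4%) in place of 26, F2 above control for 5 (background 8.49%) in place of 15, and "red-head" F1 below control for 10 (background 17.1%) in place of 9. That scaling moved the median of all tested genes between "red-head" F1 and F2 to 0.10. The members' median moved with it to -0.11, which lay 0.21 below the median of all genes.

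The deposited names of the libraries carry 4 different tags, and what they stand for is not given in the sources used here. Control replicate 1 shares a tag with F2 replicate 1, and "red-head" F1 replicate 2 shares one with F2 replicate 2. Within the first pair, 31 of 33 members were higher in F2, by a median of 0.10 on the log2 scale. Within the second pair, 30 of 33 were lower in "red-head" F1, by a median of 0.14. Each pair holds 1 library per group, and these counts stand without a share over all tested genes. No tag is shared between a "red-head" F1 and a control library, so for that comparison tag and group cannot be told apart.

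**Figure D3:**
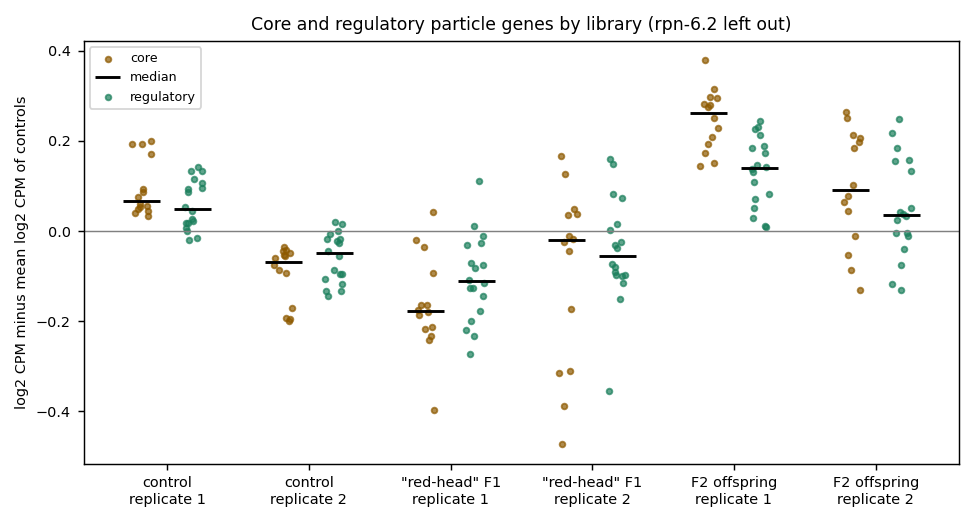
Log2 CPM of each proteasome gene minus its mean over the controls (vertical axis), per library, for core (brown) and regulatory (green) genes without *rpn-6.2*; black bars are medians. The core median is highest in F2 replicate 1 (0.26) and lowest in "red-head" F1 replicate 1 (-0.18). The regulatory medians are nearer to 0 than the core medians except in "red-head" F1 replicate 2 (-0.05 against -0.02).

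Core genes lay farther from 0 than regulatory genes in each of the 3 comparisons. The median log2 fold change of core and regulatory genes was -0.12 and -0.08 for "red-head" F1 against control, 0.17 and 0.08 for F2 against control, and -0.32 and -0.18 for "red-head" F1 against F2. "Red-head" F1 was below F2 without overlap for 12 of 14 core and 14 of 19 regulatory genes (background 20.4%). Their sum of 26 was 24 with RLE and 8 with library size only. By ring, the median between these groups was -0.38 for the alpha, -0.28 for the beta and -0.17 for the ATPase ring, and -0.18 for the non-ATPase subunits. For "red-head" F1 against control the order of the particles was not stable, since core minus regulatory was -0.037 with all libraries and 0.048 without "red-head" F1 replicate 1. The particles also differ in gene length. All tested protein-coding genes in the length range of the core genes, 801 to 1059 nt, had medians of -0.07, -0.00 and -0.05 in the same 3 comparisons, and those in the range of the regulatory genes, 855 to 3171 nt, had 0.01, 0.00 and 0.02. The part of length in the difference between the particles was not tested.

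By location, 10 members lay on chromosome I, 7 on II, 8 on III, 3 on IV, 5 on V and 0 on X, which held 9.85% of the tested protein-coding genes. Exons of 11 members overlap another gene in the annotation, 10 of them a protein-coding one. The 11 were *pas-7*, *pbs-3*, *pbs-4*, *pbs-7*, *rpn-7*, *rpn-9*, *rpn-10*, *rpn-11*, *rpt-2*, *rpt-4* and *rpt-6*. The overlap of *pbs-7*, with K07A12.5, is on the same strand and the other 10 are on opposite strands. The library kit does not mark strand, so reads of the partners could not be told apart and these values are uncertain.

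The rest of the ubiquitin pathway gave no call either. Of 107 matched genes in 7 lists, 101 were tested. In edgeR's test 0 were called higher and 0 lower in each of the 3 comparisons. At an unadjusted p under 0.05 there were 7, 0 and 8 of the 101, against 7.65%, 1.29% and 10.2% of all tested genes. The medians of the 101 genes were -0.03 for "red-head" F1 against control, 0.03 for F2 against control and -0.08 for "red-head" F1 against F2. Each was nearer to 0 than that of the proteasome genes. For "red-head" F1 against F2, the medians were -0.10 for 19 accessory factors of the proteasome, -0.10 for 10 genes of ubiquitin and its activation (9 of 10 below 0), -0.11 for 12 genes of the unfoldase CDC-48 and its cofactors, -0.09 for 14 of the anaphase-promoting complex, -0.01 for 23 of the cullin ligases, -0.13 for 17 E2 conjugating enzymes and 0.01 for 6 of the COP9 signalosome. The accessory list also held *cfim-1*, which encodes an mRNA cleavage factor, and *sel-9*, which encodes a p24 secretory protein. The list of ubiquitin and its activation also held genes of ubiquitin-like proteins and their activation, *ned-8*, *ula-1*, *rfl-1*, *smo-1*, *uba-2* and *uba-5* among them.

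**Figure D4:**
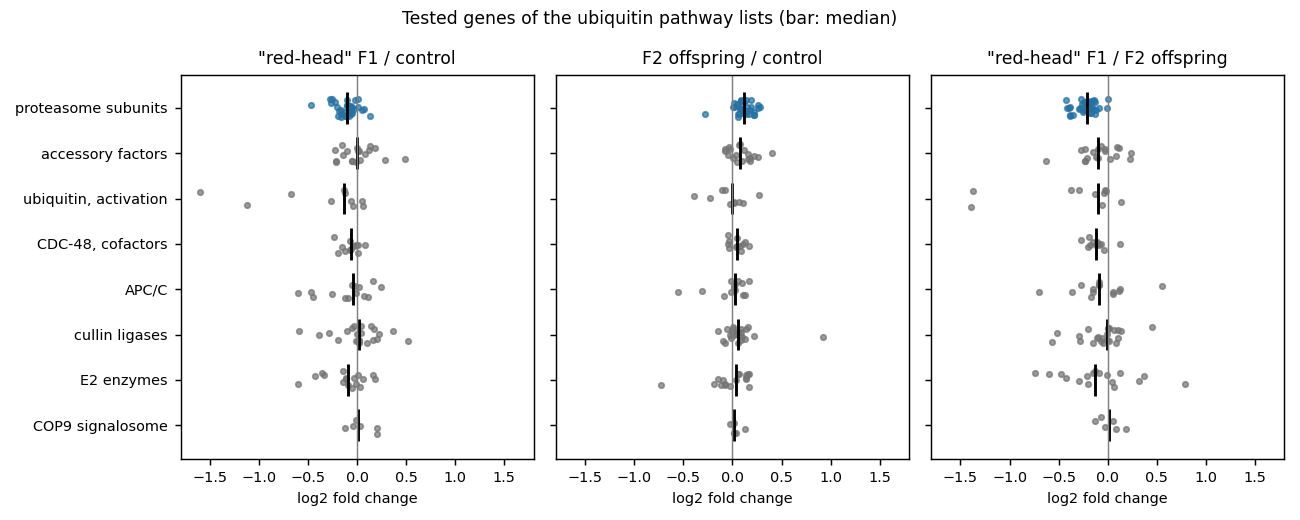
Log2 fold change (horizontal axis) of tested genes in the 7 ubiquitin pathway lists and of the proteasome subunits (blue, top row), one point per gene, with the median as a black bar, in the 3 comparisons. The proteasome genes lie between -0.47 and 0.13 in the left panel, and the 2 points near -1.60 and -1.13 in the left panel are *ubq-2* and *smo-1*.

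For "red-head" F1 against control, the largest fitted change among the tested pathway genes was that of *ubq-2*. *ubq-2*, which encodes ubiquitin fused to a ribosomal protein, was at 619 and 823 CPM in control, 190.1 and 289 in "red-head" F1, and 691 and 542 in F2 offspring germlines. The "red-head" libraries lay well below the other 4. The log2 fold change was -1.60 (SE 0.24) against control, with an adjusted p of 0.113 in edgeR's test, and -1.37 (SE 0.24) against F2, with an adjusted p of 0.248. DESeq2 called both, at adjusted p of 2.06e-10 and 1.31e-07, and so did edgeR with no filter on low counts. In edgeR's test the first was also called without F2 replicate 1 (adjusted p = 0.0468) and without F2 replicate 2 (0.0432). Without "red-head" F1 replicate 2 the changes were -1.92 against control and -1.69 against F2. That fit has a single "red-head" library, which is assumed to vary like the other groups. The polyubiquitin gene *ubq-1*, at 2182 to 2663 CPM, had no such difference (log2 fold change -0.14, SE 0.14, for "red-head" F1 against control). Both genes encode ubiquitin, so reads they share could have been counted for either.

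In edgeR's fit of all 6 libraries with the filter on low counts, other genes of the pathway with large or uneven differences passed no threshold. Without that filter edgeR called *cul-5* in F2 against control, and *cul-5*, *psme-3*, *ubc-12* and the E2 gene *let-70* in "red-head" F1 against F2. *let-70* was then also called in "red-head" F1 against control. Among the E2 genes, *ubc-12* was at 48.8 and 44.3 CPM in control, 32.7 and 28.2 in "red-head" F1, and 51.4 and 51.5 in F2. It had log2 fold changes of -0.60 (SE 0.16) for "red-head" F1 against control and -0.74 (SE 0.16) against F2, with adjusted p of 0.382 and 0.286 in edgeR's test. The changes of "red-head" F1 against F2 were -0.48 (SE 0.12) for *uev-1*, -0.43 (SE 0.12) for *ubc-7* and 0.37 (SE 0.10) for *ubc-25*, with adjusted p of 0.310, 0.340 and 0.347. *smo-1*, the SUMO gene, was listed at 0 in "red-head" F1 replicate 1 and at 11.8 to 23.9 CPM in the other 5 libraries. *cul-5*, a cullin, was at 103 and 25.3 CPM in control, 63.5 and 107 in "red-head" F1, and 123 and 124 in F2 offspring germlines. Its controls differed more from each other than the higher control did from F2. *ubc-8*, an E2 enzyme gene, was at no more than 3.7 CPM. *psme-3*, which encodes the proteasome activator PA28, was at 110.6 and 73.0 CPM in control, 82.1 and 75.4 in "red-head" F1, and 135 and 108 in F2, with a log2 fold change of -0.62 (SE 0.20) between "red-head" F1 and F2 and an adjusted p of 0.383 in edgeR's test. *dss-1*, the small lid subunit known as Rpn15 in yeast, was at 96.1 and 76.9, then 106 and 139, then 109 and 98.0 CPM. Its "red-head" values were above both controls, unlike those of most subunits, with a change of 0.48 (SE 0.17) and an adjusted p of 0.519.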

How the data were processed

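Single-end reads had been mapped by TopHat2 against WS220 transcripts, and the authors deposited raw counts per gene from HTSeq. A deposited table of the authors' DESeq2 comparisons (fold changes and p-values) was not used. Entries that name no gene (10.7% to 15.2% of reads without a feature, 1.59% to 2.15% ambiguous) were left out. Symbols, lengths and chromosomes came from Ensembl release 115 (WBcel235), which matched 44933 of 45461 names; exon overlaps are those of that build, and no coordinates are given because the counts were made on another. How reads mapping to several places were handled is not given in the sources used here.

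In R 4.3.3, edgeR 4.0.16 fitted all 6 libraries (filterByExpr, TMM, glmQLFit), and glmQLFTest gave the 3 contrasts, with Benjamini-Hochberg adjustment over 8117 genes and a threshold of 0.05. The procedure was tested on simulated data. DESeq2 1.42.0 and other settings were alternatives. The study calls the libraries biological replicates. With 2 per group, p-values rest on few samples. The labels do not say that equal replicate numbers pair the samples.

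Named proteasome genes were 13 fixed for their roles, the 3 largest fitted changes per contrast, calls, and the highest and lowest levels. *rpt-3*, *rpt-6*, *pbs-6*, *psme-3*, *dss-1*, *ubq-1*, *let-70*, *ubc-12*, *uev-1*, *ubc-7*, *ubc-25*, *rpn-7* and *rpn-8* were named after their values were seen. Members and lists were chosen with earlier results of these data known.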

Additional observations from a re-analysis of the deposited data

Results flagged for a closer look

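*pas-4*, *pbs-7* and *rpn-13* had both "red-head" F1 libraries below both controls and both F2 libraries above both controls, so that the 2 effects against control had opposite signs in all libraries. The difference between the effects is the log2 fold change of "red-head" F1 against F2, which was -0.41 for *pas-4*, -0.43 for *pbs-7* and -0.12 for *rpn-13*. In edgeR's test it had adjusted p of 0.378, 0.406 and 0.686, so none passed. This pattern occurred in 3 of 33 proteasome genes (9.09%) and in 2.75% of all tested genes. For *pas-4*, "red-head" F1 replicate 2 almost met control replicate 2 (199.9 and 200.2 CPM). With library size only, the log2 fold change of *rpn-13* in F2 against control was -0.02.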

How the results depend on the processing

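No proteasome gene was called in any of the 3 comparisons under any alternative run. For the 18 named members, 24 of 756 values changed sign and 0 passed the threshold. Without TMM factors the median of the members between "red-head" F1 and F2 was -0.11. The non-overlapping genes were then 5 (F2 above control) and 8 ("red-head" F1 below F2), and with RLE they were 15 and 24. Both scalings were applied to those counts after seeing the data. Core minus regulatory ranged from -0.069 to 0.048 ("red-head" F1 against control) and from -0.22 to -0.094 (against F2) when single libraries were left out, the farthest without F2 replicate 2. Calls over all genes, 0, 10 and 1 in the 3 comparisons ("red-head" F1 against control, F2 against control, "red-head" F1 against F2), became 355, 68 and 383 with no filter on low counts, 89, 17 and 128 with DESeq2 and 108, 16 and 124 with DESeq2 on the 4 libraries compared. edgeR on those 4 libraries gave 8 in the first and 5 in the last, and F2 against control gave 4 with library size only. The last gave 7 at an adjusted p of 0.1, 6 with RLE, 3 with library size only and 6 with at least 10 counts in every library. The replicate block gave 7 in the first and 7 in the last, and changed no proteasome or pathway call. Between libraries of the same number, the correlation of deviations was -0.09, 0.39 and 0.03 for control with F1, control with F2 and F1 with F2. Control replicate 1 and F2 replicate 1, which share a tag, lay closer over all genes than the replicates within either group. Their median absolute log2 difference was 0.12, against 0.17 between the controls and 0.21 between the F2 libraries. Leaving out single libraries gave 0 to 54, 4 to 14 and 0 to 69 calls, and 0 to 3 pathway genes in the first and last, the highest without "red-head" F1 replicate 2 (*ubq-2*, *let-70* and *smo-1*). Pathway calls were 2, 1 and 5 with no filter and 1, 0 and 1 with either DESeq2 fit. The causes were not tested. The smallest library, "red-head" F1 replicate 2, limits *rpn-6.2* most.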
